A study of Mus musculus with 8 samples.

Results

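The neutrophil granule and precursor genes described here are 10 probe sets of the 45101 on a mouse whole-genome expression array, chosen by name: 4 for proteins of the primary granule (Mpo, Elane, Prtn3 and Ctsg) and 6 for proteins packed later (Ltf, Ngp, Lcn2, Chil3, Pglyrp1 and Hp). RNA of whole blood was measured with 1 array per mouse in 4 hypoxic and 4 control mice. The hypoxic mice were exposed to hypobaric hypoxia on an expedition to Mount Everest, with oxygen lowered from 21% to about 7% over 15 days, and the controls stayed at room conditions in Kathmandu. Blood was drawn from the vena cava of both groups after 15 days, and 100 µl was extracted. The labels used here do not give strain, sex or age. Other conditions that differed between the expedition and Kathmandu cannot be told apart from oxygen. No label says whether the mice of a group came from separate cages, so they may not be independent replicates of the exposure. The p-values weigh the group difference against the spread between these animals only.

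Neutrophils form in the bone marrow, where promyelocytes fill the primary (azurophil) granules with myeloperoxidase and serine proteases. Myelocytes and later stages then stop making those transcripts and turn to the proteins of the secondary and tertiary granules, such as lactoferrin. Transcripts of granule proteins decline as the cell matures, so blood that holds only mature neutrophils carries little primary granule RNA, while younger neutrophils released from the marrow still carry later granule RNA. Because the samples are whole blood, fewer cells of a type and less RNA per cell cannot be told apart.

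The levels split by granule class on every array. The 4 primary granule probe sets were dim in all 8 mice, and 0 of them passed the filter on dim signal (above 4, log2, in 4 arrays or more). The 6 later granule probe sets all passed it. Of these 6, 1 fell and 0 rose in the hypoxic mice in limma at an adjusted p under 0.05, where 31.2% of the 29231 probe sets tested changed, 18.8% falling and 12.4% rising. The share of later granule members that fell was thus close to that of all probe sets, many of which were dimmer. At levels like those of these members the shares that fell were larger. They were 2401 of 7206 tested probe sets at a mean level of 6 to 8, and 624 of 1656 at 8 to 10. By unadjusted p under 0.05 in limma, Ltf, Ngp and Pglyrp1 were lower and 0 were higher. Of all tested probe sets, 25.7% were lower and 17.6% higher by that measure, without matching for level. The mean was lower in hypoxic mice for 5 of the 6, with a median difference of -0.59 on the log2 scale, against 54.6% and -0.06 over all tested probe sets. The same values were 69.5% and -0.30 at a mean level of 6 to 8, and 52.6% and -0.11 at 8 to 10.

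Some facts of the arrays bear on these values. In control replicate 1, 56 probe sets of level 4 or more exceeded all 7 other arrays by 2 or more (log2), and 0 to 9 did so elsewhere; no member was among them. Hypoxic replicate 1 had 6 tested probe sets at least 2 below every other array, against 0 to 2 on the others, and Chil3 was among these 6. The transferrin receptor Tfrc, which is abundant on red cell precursors, was the only marker of another blood cell type with a named probe set; it averaged 8.47 ± 0.44 in hypoxic and 5.36 ± 0.40 in control mice (SD, n = 4 each). It is a control probe set and so not among the 29231; limma fitted on these with Tfrc added gave it an adjusted p of 1.39e-05. Its part in the differences given here was not tested. No defining marker of neutrophils outside the member genes could be named, so the presence of neutrophils rests on the later granule members themselves.

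Promoter sequences were available for 9 of the 10 members in the RefSeq table for build GRCm38.p6, as windows around the annotated transcript start. They were searched on both strands for TTGCNNAA, a core bound by C/EBP factors, and for AGGAAGT, a core bound by PU.1; both factors drive granule genes in mouse myeloid cells. These letters were chosen after the sequences had been seen, and the motifs do not overlap in these windows. The shares of all promoters given below are therefore only a description. They cannot test whether the motifs are more frequent in these genes. AGGAAGT was found in the promoters of all 4 primary granule genes and of Chil3, which is 5 of 9, against 9.4% of all 32851 promoters. TTGCNNAA was found in those of Ltf, Ngp and Lcn2, which is 3 of 9, against 10.8% of all promoters. Ltf and Ngp share the same 8 bases, TTGGGCAA on the strand of the gene, which starts 75 bases before the start of Ltf and 11 bases before that of Ngp; 0.8% of all promoters hold it on either strand. Ngp holds it again on the opposite strand, 138 bases before its start. Both genes lie on chromosome 9 with 20 protein-coding genes between them. The sequences below are given 5′ to 3′ on the strand of the gene, with matches in capitals. Ltf (chr9:111019042-111019341, plus strand) and Ngp (chr9:110419558-110419857, plus strand) are the pair whose levels followed each other across mice. Pglyrp1 (chr7:18884440-18884739, plus strand) is the only member called lower in the main limma fit. Chil3 (chr3:106167515-106167814, minus strand) has the largest range across the 8 mice. Ctsg (chr14:56102525-56102824, minus strand) is the primary granule member with the largest difference. Neither motif was found in the Pglyrp1 window.
Ltf: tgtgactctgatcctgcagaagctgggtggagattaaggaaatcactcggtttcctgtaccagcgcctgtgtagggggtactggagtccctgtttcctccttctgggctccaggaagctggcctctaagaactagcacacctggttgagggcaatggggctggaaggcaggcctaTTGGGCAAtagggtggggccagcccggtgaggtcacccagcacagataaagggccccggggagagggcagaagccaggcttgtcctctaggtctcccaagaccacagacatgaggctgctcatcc
Ngp: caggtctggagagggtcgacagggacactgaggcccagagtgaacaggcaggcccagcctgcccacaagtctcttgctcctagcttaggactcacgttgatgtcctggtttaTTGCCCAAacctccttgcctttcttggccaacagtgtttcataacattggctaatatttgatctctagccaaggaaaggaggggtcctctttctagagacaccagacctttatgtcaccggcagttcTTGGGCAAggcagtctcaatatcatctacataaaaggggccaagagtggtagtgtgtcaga
Pglyrp1: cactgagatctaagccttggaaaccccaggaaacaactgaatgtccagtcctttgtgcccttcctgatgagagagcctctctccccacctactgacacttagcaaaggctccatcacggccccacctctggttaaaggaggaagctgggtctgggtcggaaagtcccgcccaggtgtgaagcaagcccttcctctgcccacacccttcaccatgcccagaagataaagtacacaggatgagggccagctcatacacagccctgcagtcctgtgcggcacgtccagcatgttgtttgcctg
Chil3: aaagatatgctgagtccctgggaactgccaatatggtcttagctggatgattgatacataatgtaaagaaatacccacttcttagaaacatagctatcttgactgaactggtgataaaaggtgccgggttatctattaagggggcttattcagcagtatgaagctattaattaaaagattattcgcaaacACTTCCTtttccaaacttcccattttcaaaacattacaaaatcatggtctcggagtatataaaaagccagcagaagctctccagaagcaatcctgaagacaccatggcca
Ctsg: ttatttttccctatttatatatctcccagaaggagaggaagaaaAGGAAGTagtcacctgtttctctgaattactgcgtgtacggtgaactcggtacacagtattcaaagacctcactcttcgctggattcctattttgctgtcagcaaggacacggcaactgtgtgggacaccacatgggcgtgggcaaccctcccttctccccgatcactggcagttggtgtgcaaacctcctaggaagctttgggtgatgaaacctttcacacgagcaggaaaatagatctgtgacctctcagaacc

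Among the primary granule genes, Mpo encodes myeloperoxidase, the enzyme that makes hypochlorous acid. Probe set 1415960_at had log2 values of 2.14, 2.24, 2.26 and 2.38 in hypoxic mice and 2.31, 2.00, 2.36 and 2.37 in control mice. All 8 values lay within 0.37 of each other and the groups overlapped fully. Elane (1422928_at), which encodes neutrophil elastase, had 2.95, 2.97, 2.75 and 2.80 in hypoxic mice and 2.76, 2.85, 2.37 and 3.13 in control mice. Its highest and lowest values were both from controls. Neither of these probe sets passed an exact permutation test of the difference (two-sided, n = 4 per group, p = 1 for Mpo and 0.686 for Elane), and neither is listed in the authors' deposited table. In limma without a filter the 95% intervals of the difference were -0.29 to 0.27 for Mpo and -0.27 to 0.44 for Elane.

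Prtn3 (1419669_at) encodes proteinase 3, an elastase-like protease whose gene is the direct protein-coding neighbour of Elane on chromosome 10. It had 4.00, 3.94, 3.87 and 3.88 in hypoxic mice and 3.84, 3.80, 3.46 and 3.61 in control mice. Every hypoxic mouse lay above every control, the nearest pair being 3.87 against 3.84, and the means were 3.92 ± 0.06 and 3.68 ± 0.18. The difference of 0.24 had an exact permutation p of 0.0286 (two-sided, n = 4 per group), the smallest that 70 assignments of the mice can give, and an adjusted p of 0.182 in limma without a filter. Of all probe sets under the filter, 13.4% had every hypoxic mouse above every control, and 2.19% had the reverse.

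Ctsg (1419594_at) encodes cathepsin G, the chymotrypsin-like protease of the same granule. It had 3.05, 3.19, 3.47 and 3.41 in hypoxic mice and 2.69, 2.49, 3.06 and 2.62 in control mice. The groups overlapped only through hypoxic replicate 1 and control replicate 3. The mean was 3.28 ± 0.20 in hypoxic and 2.71 ± 0.24 in control mice, a difference of 0.57 with an exact permutation p of 0.0571 (two-sided, n = 4 per group). In limma without a filter the adjusted p was 0.0242, with a 95% interval of 0.23 to 0.91, where 22.2% of 45037 probe sets changed in either direction. The authors' deposited table gives Ctsg 1.48-fold (q-value 0.825%) and Prtn3 1.18-fold (q-value 7.88%). In that deposited table of the authors 16.5% of the listed probe sets were higher at a q-value under 5%. These 4 exact tests were the only ones run on primary granule members, and their p-values are not adjusted.

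**Figure D1:**
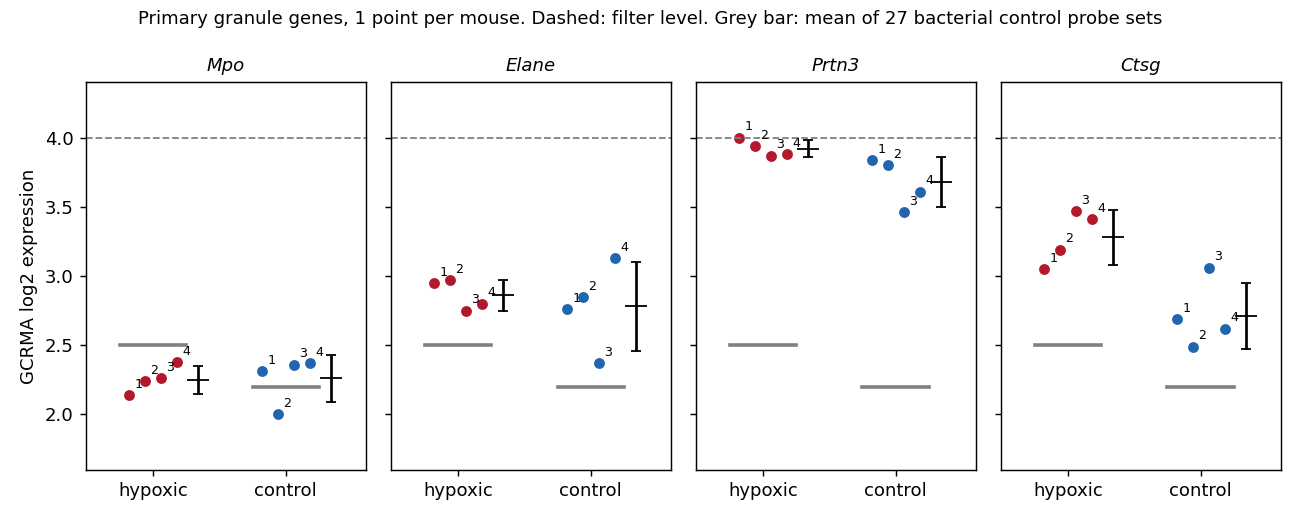
Log2 expression of the 4 primary granule probe sets, 1 point per mouse with its replicate number, hypoxic mice in red and controls in blue, with the mean and SD (n = 4) in black. The dashed line is the filter level of 4 and the grey bars are the group means of the 27 bacterial control probe sets, 2.50 in hypoxic and 2.19 in control mice; no value lies clearly above 4.

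Array background moved in the same direction as Prtn3 and Ctsg. The array carries 27 bacterial control probe sets that match no mouse RNA. They averaged 2.50 ± 0.08 in hypoxic and 2.19 ± 0.04 in control mice (two-sided exact permutation p = 0.0286, n = 4 each). Of these 27, 26 had a higher mean in hypoxic mice, with a median difference of 0.27, and 18 had a larger difference than Prtn3 and 2 a larger one than Ctsg. The mean level of Prtn3 was exceeded by 1 bacterial control, that of Ctsg by 5, that of Elane by 6 and that of Mpo by 11. Over the 15806 probe sets under the filter the median difference was 0.14. The levels and differences of the primary granule members lay inside the range that these bacterial control probe sets showed. For the level of Prtn3 this held only through the highest bacterial control, with a mean of 4.31. The second highest had 3.30 and the median was 2.07. Whether the signals or differences of Prtn3 and Ctsg are background was not tested.

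Ltf encodes lactoferrin, the iron-binding protein of the secondary granule. The log2 values of its probe set 1450009_at were 6.70, 6.12, 7.30 and 6.77 in hypoxic mice and 8.99, 6.88, 7.35 and 7.71 in control mice. Control replicate 1 stood highest, and control replicate 2 lay below hypoxic replicate 3, so the groups overlapped. The mean was 6.73 ± 0.48 in hypoxic and 7.73 ± 0.90 in control mice, a difference of -1.01 ± 0.39 (SE) or 49.7% of the control level, and the threshold was missed (adjusted p = 0.067, limma, 95% interval -1.85 to -0.16). Without control replicate 1 the difference was -0.59 (adjusted p = 0.142, limma), and without control replicate 2 it was -1.29 (adjusted p = 0.0279, limma).

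Ngp encodes neutrophilic granule protein, a cathelicidin-related protein of mouse secondary granules. At probe set 1418722_at it had 7.48, 7.22, 8.09 and 8.23 in hypoxic mice and 10.29, 8.01, 8.47 and 8.78 in control mice. The pattern was that of Ltf: control replicate 1 was highest, then control replicates 4 and 3, and hypoxic replicates 1 and 2 were the lowest of the 8 mice for both genes. The mean was 7.76 ± 0.48 in hypoxic and 8.89 ± 0.99 in control mice, a difference of -1.13 ± 0.41 (SE) or 45.7% of the control level (adjusted p = 0.0558, limma, 95% interval -2.03 to -0.23). The size again depended on single controls: without control replicate 1 the difference was -0.66 (adjusted p = 0.096, limma), and without control replicate 2 it was -1.42 (adjusted p = 0.0255, limma). In the authors' deposited table both genes were called, with q-values of 3.06% for Ltf and 2.4% for Ngp, where 20.0% of the listed probe sets were lower at a q-value under 5%.

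Pglyrp1 encodes peptidoglycan recognition protein 1, an antibacterial protein of the later granules. It was the only member called lower in the main limma fit, while Ltf and Ngp had larger mean differences. The signal of probe set 1449184_at was 8.50, 7.73, 8.66 and 8.69 in hypoxic mice and 8.87, 9.37, 9.05 and 8.93 in control mice. Every hypoxic mouse lay below every control, as in 18.0% of tested probe sets of all levels (13.9% had the reverse). The mean was 8.39 ± 0.45 in hypoxic and 9.05 ± 0.22 in control mice, a difference of -0.66 ± 0.22 (SE) or 63.3% of the control level (adjusted p = 0.0372, limma, 95% interval -1.13 to -0.19). The direction was the same without any 1 mouse, but the adjusted p in limma stayed under 0.05 in only 2 of the 8 fits with a mouse left out and reached 0.102 without control replicate 2. Without hypoxic replicate 2, the lowest mouse, the difference was -0.44 (adjusted p = 0.0676, limma). With arrays centred on their median it was -0.59 (adjusted p = 0.054, limma).

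Hp encodes haptoglobin, which binds free haemoglobin and is made in the liver as well as stored in neutrophil granules. Levels at probe set 1448881_at were 8.27, 8.45, 8.73 and 8.58 in hypoxic mice and 8.87, 9.95, 8.73 and 8.56 in control mice. Only control replicates 1 and 2 lay above all hypoxic mice. The mean was 8.51 ± 0.20 in hypoxic and 9.03 ± 0.63 in control mice, a difference of -0.52 ± 0.26 (SE) that missed the threshold (adjusted p = 0.154, limma). Without control replicate 2 it was -0.21 (adjusted p = 0.37, limma).

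Lcn2 encodes lipocalin 2, which binds bacterial siderophores. At probe set 1427747_a_at the level was 8.61, 8.43, 8.87 and 9.21 in hypoxic mice and 9.95, 9.33, 8.39 and 8.73 in control mice. The lowest and the highest of the 8 mice were both controls. The mean was 8.78 ± 0.34 in hypoxic and 9.10 ± 0.69 in control mice, a difference of -0.32 ± 0.30 (SE, adjusted p = 0.437, limma, 95% interval -0.97 to 0.34). Without control replicate 1 it was -0.03 (adjusted p = 0.932, limma).

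**Figure D2:**
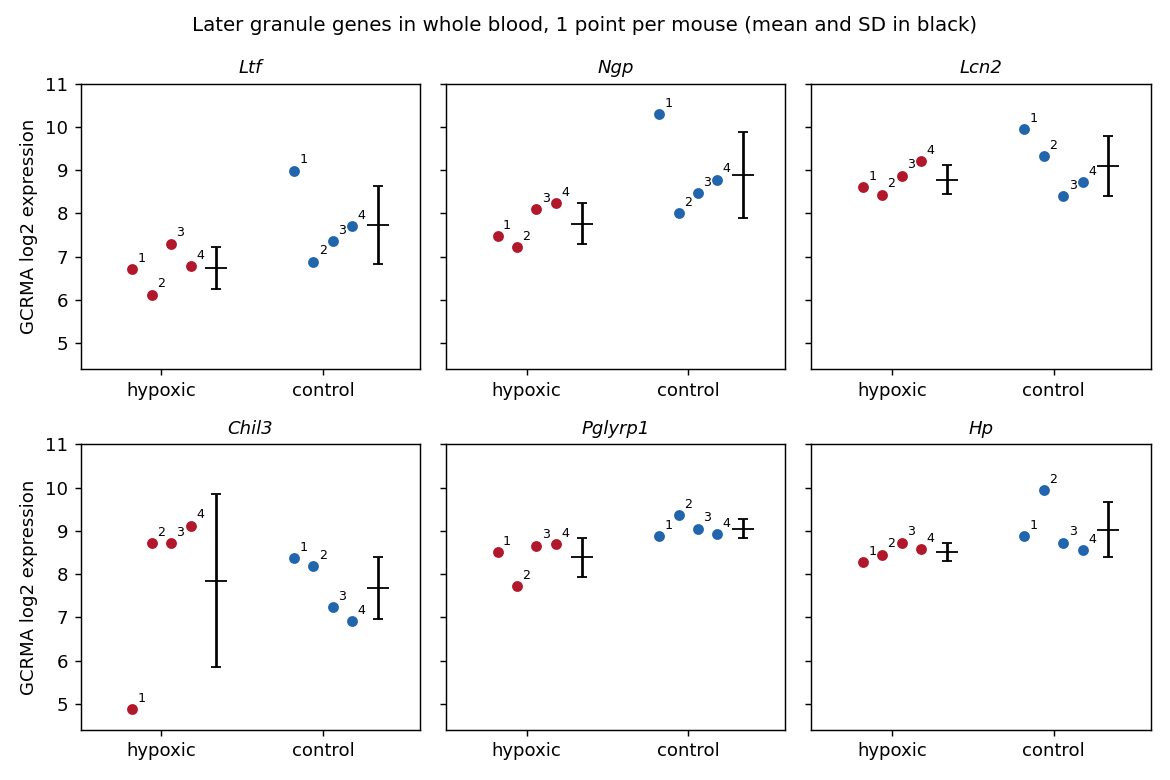
Log2 expression of the 6 later granule probe sets, 1 point per mouse with its replicate number, hypoxic mice in red and controls in blue, with the mean and SD (n = 4) in black. Pglyrp1 is the only panel in which the groups do not overlap; control replicate 1 stands highest for Ltf, Ngp and Lcn2, and hypoxic replicate 1 lies at 4.87 for Chil3.

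Chil3 encodes the chitinase-like protein Ym1, made by neutrophil precursors and also by monocytes and macrophages. Values of probe set 1419764_at were 4.87, 8.71, 8.71 and 9.12 in hypoxic mice and 8.37, 8.19, 7.24 and 6.91 in control mice. Of the 8 mice, 3 hypoxic ones were the highest and hypoxic replicate 1 was the lowest. The mean was 7.85 ± 2.00 in hypoxic and 7.68 ± 0.71 in control mice, a difference of 0.17 ± 0.77 (SE, adjusted p = 0.881, limma, 95% interval -1.52 to 1.87). Without hypoxic replicate 1 it was 1.17 (adjusted p = 0.0237, limma), and leaving out any 1 mouse moved it between -0.25 and 1.17. The listed value of hypoxic replicate 1 has only 1 possible reading as a log2 value, and the 8 readings give the difference of means in the authors' deposited table. Whether this probe set also reads the closely related gene Chil4 was not tested.

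**Figure D3:**
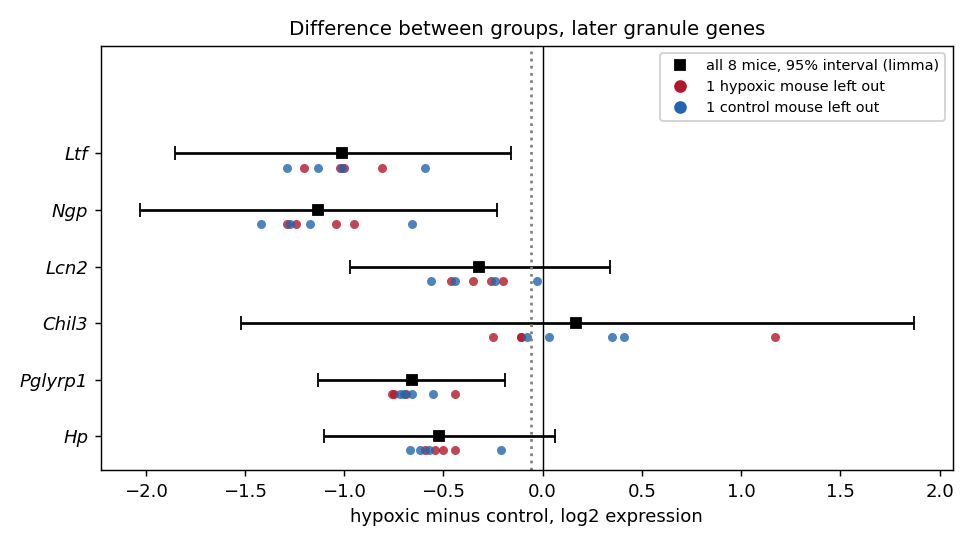
Difference of log2 expression, hypoxic minus control, for the 6 later granule genes. Squares and bars give the value and 95% interval with all 8 mice (limma), red and blue points the value with 1 hypoxic or 1 control mouse left out, and the dotted line the median of all tested probe sets, -0.06; Ltf moves to -0.59 and Ngp to -0.66 without control replicate 1, and Chil3 to 1.17 without hypoxic replicate 1.

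With all 8 mice, the later granule genes differed more between mice of a group than most probe sets did. The within-group SD was 1.50 for Chil3, 0.78 for Ngp, 0.73 for Ltf, 0.54 for Lcn2, 0.47 for Hp and 0.36 for Pglyrp1, against a median of 0.24 over all tested probe sets. Among tested probe sets within 0.5 of its own mean level, Chil3 exceeded 99.8%, Ltf 99%, Ngp 98.3%, Lcn2 94.7%, Hp 86.9% and Pglyrp1 71.4%. These percentages describe 8 arrays and were not tested. Single mice set much of this spread, as leaving each mouse out in turn showed, an alternative chosen after seeing the data. Leaving out the mouse farthest from its group mean cannot raise the SD of any probe set. That the SD fell on such a removal is thus not particular to these genes. The size of the falls given next was not compared with that in other probe sets. Most other removals changed the SD little. Without hypoxic replicate 1 the SD of Chil3 was 0.57, below the 0.84 of Ngp, 0.79 of Ltf and 0.59 of Lcn2 in the same mice, and it then exceeded 95% of probe sets of like level. Without control replicate 1 the SD was 0.46 for Ltf and 0.45 for Ngp. Leaving out hypoxic replicate 2 gave 0.18 for Pglyrp1, and leaving out control replicate 2 gave 0.18 for Hp.

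Ltf and Ngp deviated from their group means in the same mice, and the later granule members as a whole did not. Control replicate 1 was above its group mean by 1.26 for Ltf, 1.40 for Ngp, 0.85 for Lcn2 and 0.69 for Chil3, and its deviation was -0.18 for Pglyrp1 and -0.16 for Hp. Control replicate 2 was highest for Pglyrp1 and Hp, 0.31 and 0.93 above its group mean. Its deviation was -0.86 for Ltf and -0.88 for Ngp. Hypoxic replicate 2 was the lowest of the 8 mice for Ltf, Ngp and Pglyrp1, with deviations of -0.60, -0.53 and -0.67 from its group mean. For Chil3 it lay 0.86 above its group mean, but hypoxic replicate 1 at 4.87 lowered that mean. Hypoxic replicates 3 and 4 also lay above it, by 0.86 and 1.27. Hypoxic replicate 4 was the highest hypoxic mouse for 4 of the 6 genes.

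**Figure D4:**
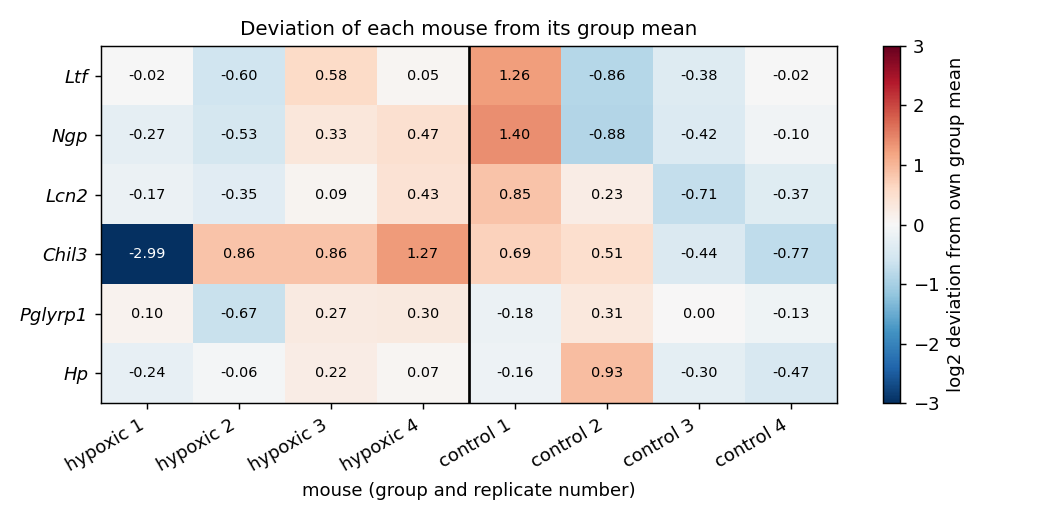
Deviation of each mouse from the mean of its own group on the log2 scale, for the 6 later granule genes (rows) and 8 mice (columns, hypoxic on the left, control on the right). Ltf and Ngp deviate together, with control replicate 1 at 1.26 and 1.40, while hypoxic replicate 1 deviates by -2.99 for Chil3 and by no more than 0.27 in size for the other genes.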

How the data were processed

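The submitters' processing notes name GCRMA and Partek, without versions. The deposited log2 values had lost their decimal point (some had become day numbers), and each was read back so as to give, within 5e-06, the log2 difference in the authors' deposited table of a significance analysis of microarrays (SAM), which also lists a score, a fold ratio and a q-value in percent. For 38201 of 38206 listed probe sets 1 reading did so, and the deposited folds, not used for this, differed by at most 1.6e-06. The other 6895, Mpo and Elane among them, were read from their row alone. Damage of the assumed kind was simulated on listed probe sets. It was undone in 100.00% of values through the difference and in 98.75% from the row alone. The 6895 themselves were not part of this check. GCRMA compresses changes near its floor.

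The 64 control probe sets were left out (Tfrc, 1 of them, was added back in a separate fit for its own p-value), and 29231 probe sets above 4 (log2) in 4 or more of 8 arrays were fitted with limma 3.58.1 under R 4.3.3. Group was its sole term, tests were two-sided with Benjamini-Hochberg adjustment, and the fit was tested on simulated data. Python 3.11.15 was used. Members and lists were chosen with earlier results of these data known. Members were named by the rule that chose them. All 10 were to be named in full, and likewise up to 2 genes a direction of each list and the 3 genes most like each class. No table used here pairs other probe sets with genes, so the lists (other granule genes, transcription factors, precursors, mature neutrophils, protease inhibitors, receptors and other blood cell types) and the likeness search were not run. Replicate numbers of the titles did not pair the mice (correlations -0.11, -0.06, -0.10 and 0.06). The number of arrays limits the precision.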

Additional observations from a re-analysis of the deposited data

Results flagged for a closer look

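Each of the 10 members gives 2 groups of 4 mice. In 2 of these 20 groups Dixon's test set 1 mouse apart, and chance would do so in about 1. For Chil3, hypoxic replicate 1 had 4.87 while the remaining hypoxic mice had 8.71 to 9.12. For Mpo, control replicate 2 had 2.00 while the remaining controls had 2.31 to 2.37, all near array background.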

How the results depend on the processing

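The main analysis called 0 members higher and 1 lower (Pglyrp1). Members called higher numbered 1 without a filter (Ctsg; 4524 of 45037 probe sets were higher), 1 in the authors' deposited SAM table (Ctsg; 16.5% of all were higher), 0 to 1 with each mouse left out in turn (9.28% to 12.2%), and 1 (Chil3; 7.90%) without both mice numbered 1, an alternative chosen after seeing the data like the centring on spike-ins. Members called lower numbered 3 with the stricter filter and 3 in the authors' deposited table (Ltf, Ngp and Pglyrp1), where 37.5% and 20.0% of all probe sets were lower, 2 with array weights (Ltf and Pglyrp1; 20.0% of all), 2 with a replicate block (Ltf and Ngp, not Pglyrp1, adjusted p = 0.0411, 0.047 and 0.0716, limma; 16.5% of all), 0 with arrays centred on their median (15.3%), 0 at an adjusted p under 0.01 (9.11%), 0 without both mice numbered 1 (11.6%), and 0 to 2 with each mouse left out in turn (14.2% to 19.6%). The stricter filter tests fewer probe sets, but the cause of the change in calls was not tested for any setting. Of the 20 alternatives, 13 could move a difference, and Ltf, Ngp, Pglyrp1 and Hp were negative in these 13; Chil3, never called lower, lay between -0.25 and 1.17 with each mouse left out (-0.11 without hypoxic replicate 2, -0.11 without 3, -0.25 without 4, -0.08 without control replicate 4), and Lcn2 was 0.02 without both mice numbered 1. Over all tested probe sets, 3614 rose and 5500 fell; with the stricter filter 1978 rose and 3831 fell, at 0.01 1954 rose and 2663 fell, 6282 were higher in the authors' deposited table, and without both mice numbered 1 2308 rose and 3396 fell. Among calls, rises and falls numbered 4631 and 4458 with arrays centred on their median. Only 1 of 4 controls deviated most like the hypoxic mouse that shares its number. The planned comparison of probe sets of the same gene was not run for want of gene names. Low signal limits what can be said of the primary granule members.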

Other observations

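The size of a change depended on the scale of averaging for the genes that varied most. The authors' deposited fold, a ratio of linear means, was 1.59 for Chil3, where the log2 means give 113% of the control level, and 0.391 for Ngp, where they give 45.7%. For Pglyrp1, which varied least among the later granule genes with all 8 mice, the deposited fold was 0.649 and the log2 means give 63.3%.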
